A study of Mus musculus with 9 samples.

Results

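The PKM2 knock-in embryonic stem (ES) cell line was followed from the undifferentiated state into embryoid bodies on 3 arrays, which are 3 of the 9 arrays of the series. They were taken by their labels, which name the genotype PKm2 knock-in at the undifferentiated stage (day 0) and in embryoid bodies of day 3 and day 7. The other 6 arrays hold the same days of a PKm1 knock-in line and of a wild type line, and they are used here only for comparison. Undifferentiated cells of all 3 lines were grown with leukaemia inhibitory factor (LIF), and embryoid bodies were grown in suspension without it. Total RNA was labelled with Cy3 and read on 1-colour Agilent mouse arrays. Each genotype is 1 cell line, and the sources used here do not say how the lines were made, what passage they were at or whether feeder cells were present. With 1 array for each line and day there are no replicates, so no difference below has a test or a p-value.

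Pkm encodes pyruvate kinase M, the enzyme of the last step of glycolysis, and alternative splicing of a pair of mutually exclusive exons gives PKM1 or PKM2. ES cells mainly use PKM2, and many adult tissues such as muscle and brain use PKM1. LIF acts through STAT3 to hold mouse ES cells in the naive state of pluripotency. When LIF is removed and cells aggregate, embryoid bodies pass through an epiblast-like state, form an outer layer of extraembryonic endoderm and then produce cells of the germ layers. Visceral endoderm is the absorptive and secretory layer of the yolk sac, which takes up proteins through cubilin and megalin and secretes alpha-fetoprotein, transthyretin and apolipoproteins.

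The 3 arrays of the line were close in quality. Between 55.3 and 59.5% of their spots were well above background (54.2 to 61.6% over the 9 arrays), no spot was saturated, and 13834 to 14402 named genes were detected, meaning well above background. Day 0 and day 3 of the line lay on the same slide, while day 7 was alone on another slide. In day 7 against day 0 or day 3, day and slide therefore cannot be told apart. Probes spotted at least 4 times on an array had a median SD over their spots of 0.07 log2 units on each of the 3 arrays (257 to 276 probes), which covers spot error only and not the spread between cultures. A gene was counted as higher or lower where its signals differed at least 2-fold. If the dimmer array was not well above background, the fold was counted from that array's lowest detected signal or the probe's own signal, whichever was higher, and is given as "at least". Values are log2 of the processed signal after scaling each array to a common 75th percentile, with a floor that equals 2.32. They compare 1 probe between arrays and not probes with each other. Lists of genes were counted over members detected on at least 1 of the 3 arrays of the line, so a list with many silent members can count only those that appeared. In whole embryoid bodies, fewer cells of a type and less RNA per cell cannot be told apart.

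The array cannot check the genotype. Pkm was read by 1 probe, which does not separate the splice forms, and its signal in the PKM2 knock-in line was 13.78 at day 0, 14.31 at day 3 and 13.63 at day 7. These stayed within 2-fold of each other. Pklr, the gene of the liver and red cell pyruvate kinase, was not detected on any array of the line.

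Most of the profile of the PKM2 knock-in line stayed within 2-fold across the week. Of 15306 genes detected on at least 1 of its arrays, 11360 (74.2%) were within 2-fold in all 3 pairs of days, compared with 55.9% of 15716 genes in PKM1 knock-in cells and 66.4% of 15920 genes in the wild type line. Day 3 against day 0 had 1201 genes higher (7.85%) and 1364 lower (8.91%). Day 7 against day 0 had 1419 higher (9.27%) and 1188 lower (7.76%). Day 7 against day 3, the last 4 days, had the fewest, with 834 higher (5.45%) and 520 lower (3.4%). With normexp background correction the counts higher and lower were 642 and 866, 645 and 708, and 461 and 255 in these 3 pairs. The median over all genes was near 0 in each pair, at 0.05, 0.05 and -0.03 log2 units. At day 3 against day 0, 7.49% were higher and 8.26% lower in PKM1 knock-in cells, and 11% higher and 9.64% lower in wild type cells. In the last pair the other lines had more, with 16.5% of genes higher and 17.6% lower in PKM1 knock-in cells and 11.8% higher and 11.8% lower in the wild type line. By day 7 against day 0, the shares were 13.7% higher and 10% lower in PKM1 knock-in cells and 7.68% higher and 5.01% lower in the wild type line, so the wild type line had the fewest genes past 2-fold in that pair. Day 7 lay on another slide than day 0 for PKM2 knock-in cells, but on the same slide as day 0 for PKM1 knock-in cells and for wild type cells. These shares therefore set a pair across slides beside pairs within a slide. At day 3 against day 0 it was the reverse, with a pair within a slide in the PKM2 knock-in line and across slides in the other lines. Day 7 against day 3 crossed slides in every line. In the shares within 2-fold in all 3 pairs, slide and line therefore cannot be told apart.

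**Figure D1:**
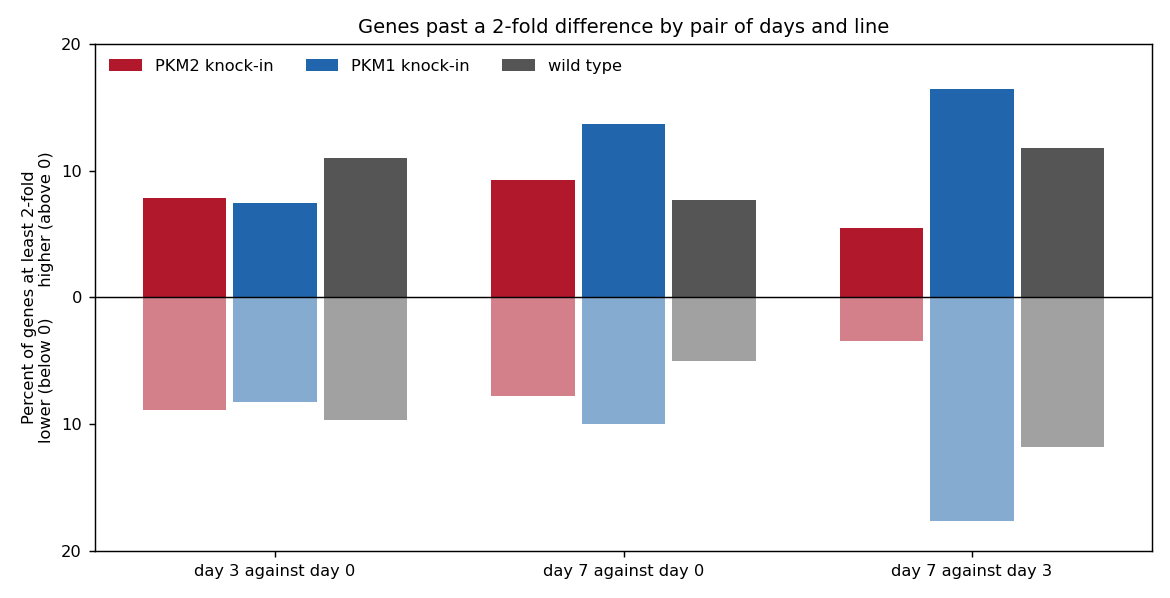
Percent of each line's detected genes at least 2-fold higher (dark bars, above 0) or lower (pale bars, below 0) in each pair of days, with 1 array per line and day. In day 7 against day 3 the bars of the PKM2 knock-in line reach 5.45% and 3.4%, and those of the other lines reach 11.8% or more in each direction.

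By time course, 566 genes of the PKM2 knock-in line were higher at day 3 and still higher at day 7, and 841 were lower at both. Another 809 genes were higher and 342 lower only by day 7, while 630 were higher and 479 lower at day 3 and back within 2-fold of day 0 at day 7. As a description across 16936 genes, which are not independent replicates and were read by the same probes on each array, the day 7 array of the line correlated at Pearson r = 0.972 with its own day 3 array and at 0.959 with its day 0 array. Its correlation was 0.966 with day 3 of the PKM1 knock-in line, 0.916 with day 7 of that line and 0.946 with day 7 of the wild type line. The day 7 array was thus closer to its own day 3 array and that of the PKM1 knock-in line than to the day 7 array of either other line.

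Of the general pluripotency genes, 1 was higher and 1 lower by day 7 in the PKM2 knock-in line. All 20 listed genes were detected on all 3 arrays, and 15 were within 2-fold in every pair of days (75%, beside 74.2% over all genes of the line), compared with 6 of 20 in PKM1 knock-in cells and 19 of 20 in the wild type line. The median of the 20 at day 7 against day 0 was -0.22, beside 9.27% higher, 7.76% lower and a median of 0.05 over all genes. In the PKM1 knock-in line the same comparison had 0 higher and 10 lower with a median of -1.0, beside 13.7% higher, 10% lower and a median of -0.14 over all its genes. In the wild type line it had 0 higher and 0 lower with a median of -0.23, beside 7.68% higher, 5.01% lower and a median of -0.03.

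Pou5f1, the POU factor OCT4 that is needed for pluripotency, read 15.00 at day 0, 15.14 at day 3 and 14.97 at day 7 in the PKM2 knock-in line. Day 7 of the PKM1 knock-in line read 13.05 and day 7 of the wild type line 14.45. Sox2, the partner of OCT4, read 12.45, 12.56 and 12.88 on the same 3 days of the PKM2 knock-in line, and Tdh, the threonine dehydrogenase on which mouse ES cells depend, read 16.48, 16.71 and 16.71. None of these shifted by as much as 2-fold in the PKM2 knock-in line. Nanog, a homeobox factor of the same network, was the single member that was higher by day 7, at 7.53, 7.18 and 8.60 over the 3 days, 2.11-fold above day 0. Tdgf1, which encodes the Nodal co-receptor Cripto, was 2.56-fold higher at day 7 than at day 3. Zfp296, a zinc finger gene of ES cells, went the other way and stayed down, at 14.41, 12.21 and 12.33, which is 4.22-fold lower at day 7 than at day 0. Fbxo15, an OCT4 and SOX2 target, dipped at day 3 (13.90, 11.74 and 13.21).

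Of the 20 naive pluripotency genes of the line, 16 were within 2-fold of day 0 at day 7. At day 3 against day 0, 1 of 20 was higher and 6 were lower, with a median of -0.53, beside 7.85% higher, 8.91% lower and a median of 0.05 over all genes. By day 7 against day 0, 2 were higher (Klf2 and Gbx2) and 2 lower (Klf4 and Dppa3). The median was -0.15, beside 9.27% higher and 7.76% lower over all genes. In the PKM1 knock-in line 0 were higher and 16 lower by day 7 with a median of -2.04, and in the wild type line 0 were higher and 1 lower with a median of -0.52. Day 7 against day 3, which shares the day 3 array with the dip, had 2 higher and 1 lower with a median of 0.52. This was beside 5.45% higher, 3.4% lower and a median of -0.03 over all genes. The difference was positive for 19 of the 20, but for Fgf4 (0.02) and Nr5a2 (0.03) it was below the median spot SD of 0.07.

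Zfp42 encodes REX1, a zinc finger protein widely used as a reporter of the naive state, and its promoter is shown because the gene kept its signal. The window below is the RefSeq promoter, chr8:43306960-43307259 on the minus strand of GRCm38.p6, from 250 bases before to 50 after the start, 5′ to 3′ along the gene. Its capitals mark the single match to the octamer bound by POU factors, ATGCAAAT, which lies here on the opposite strand.
Zfp42 promoter: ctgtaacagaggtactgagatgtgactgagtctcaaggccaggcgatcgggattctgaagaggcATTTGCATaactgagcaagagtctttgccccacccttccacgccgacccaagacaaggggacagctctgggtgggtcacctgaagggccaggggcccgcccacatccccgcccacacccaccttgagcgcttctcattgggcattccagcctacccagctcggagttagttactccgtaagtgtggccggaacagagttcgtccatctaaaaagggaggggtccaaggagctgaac
On either strand, 1.74% of 32851 RefSeq promoters hold this octamer, and so do 2 of the 14 promoters matched to the naive list, those of Spp1 and Zfp42. A match describes the letters only and not binding.

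Zfp42 read 15.09, 14.61 and 15.19 in the PKM2 knock-in line on days 0, 3 and 7. It read 15.65, 14.94 and 13.35 in PKM1 knock-in cells and 14.68, 14.04 and 13.93 in the wild type line. At day 7 it was at its day 0 level in the PKM2 knock-in line and below day 0 in the PKM1 knock-in line. Esrrb, an orphan nuclear receptor of the naive network, read 15.93, 15.64 and 16.25 in the PKM2 knock-in line, against 14.22 at day 7 of the PKM1 knock-in line and 15.43 at day 7 of the wild type line. Dppa5a, an RNA-binding protein gene of ES cells, read 17.57, 17.49 and 17.78. Klf2, a Krüppel-like factor that supports self-renewal, was 2.14-fold higher at day 7 than at day 0 (13.92, 14.17 and 15.01), while its relative Klf4 was 2.5-fold lower (14.68, 12.89 and 13.36). Tcl1, a coactivator of AKT, was 3.14-fold lower at day 3 (14.51, 12.86 and 14.22), and Tbx3, a T-box factor downstream of LIF, was 2.45-fold lower at day 3 (14.25, 12.96 and 14.05). Both were back within 2-fold of day 0 at day 7. Dppa3, a maternal factor gene also active in germ cells, stayed lower (9.61, 7.98 and 8.54). Kept pluripotency genes were picked because they did not differ 2-fold in any pair of days, so that is not a result for them. The 10 of them with the brightest probes in the line were Dppa5a, Tdh, Esrrb, L1td1, Etv5, Utf1, Pou5f1, Zfp42, Fgf4 and Dnmt3l. Brightness across probes served only to choose which to name.

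**Figure D2:**
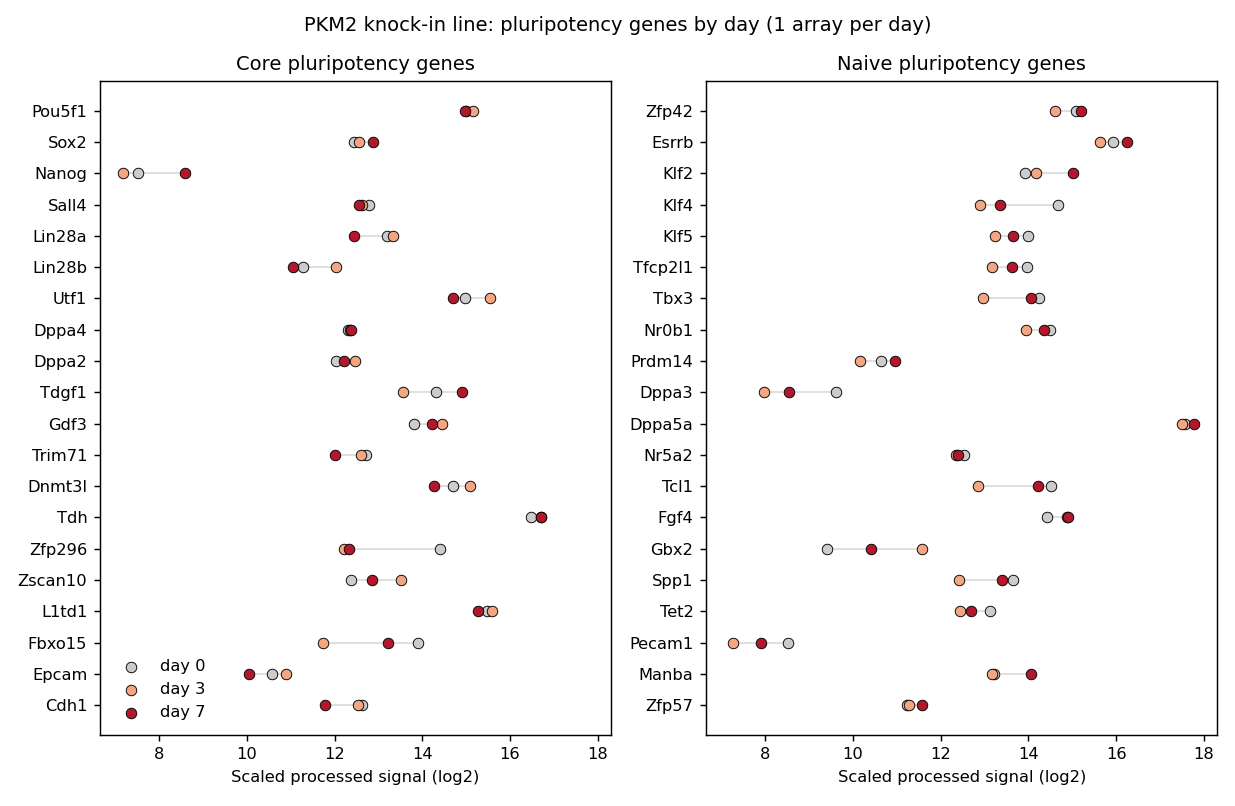
Signal (log2, horizontal axis) of the 20 core (left) and 20 naive (right) pluripotency genes on the 3 arrays of the PKM2 knock-in line, grey for day 0, orange for day 3 and red for day 7. For 27 of the 40 genes the 3 points lie within 2-fold (1 unit) of each other in every pair.

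Joined together, 27 of the 40 core and naive genes (67.5%) were within 2-fold in every pair of days in the PKM2 knock-in line, compared with 9 of 40 (22.5%) in PKM1 knock-in cells and 35 of 40 (87.5%) in the wild type line. The PKM2 knock-in share was below the 74.2% over all its genes. At day 3 against day 0 the line had 2 of the 40 higher and 8 lower, beside 7.85% and 8.91% over all genes. A fixed set of 10 ES-cell markers was detected in full on each array of the line. Its summed signal, to which Dppa5a contributes most, was 18.66, 18.52 and 18.79 (log2) over the 3 days. At day 7 this sum was 17.59 in PKM1 knock-in cells and 18.21 in the wild type line. The median of the set was 14.83, 14.08 and 14.81 in the PKM2 knock-in line. That median was 14.92, 14.27 and 13.20 in PKM1 knock-in cells and 14.76, 13.78 and 13.70 in the wild type line.

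Genes of the formative and primed epiblast, the stages that follow the naive state, were partly higher at day 3 in the PKM2 knock-in line. Of 17 listed and detected genes, 8 were higher and 1 lower at day 3 (median 0.91), beside 7.85% and 8.91% over all genes. At day 7 against day 0, 6 were higher and 2 lower (median 0.48), beside 9.27% and 7.76%. At day 7 against day 0 the PKM1 knock-in line had 8 higher and 3 lower (median 0.91), and the wild type line 8 higher and 0 lower (median 0.95). Lef1, a transcription factor of the Wnt pathway, had the largest difference in the list at day 3, with 5.44, 10.52 and 7.45 over the 3 days, 33.9-fold above day 0 at day 3 and 4.03-fold at day 7. Pou3f1, the POU factor OCT6, read 9.84, 12.32 and 10.32, and Dnmt3b, a de novo DNA methyltransferase, read 13.21, 15.33 and 13.60. Both peaked at day 3 and were within 2-fold of day 0 again at day 7. Fgf5, a growth factor that marks the primed epiblast, read 7.52, 9.85 and 8.97 and was still 2.75-fold above day 0 at day 7. Otx2, a homeobox factor that drives exit from the naive state, read 11.49, 13.00 and 13.02, and Lefty1, a secreted Nodal inhibitor, read 8.66, 11.97 and 12.20. These last 2 genes therefore held at day 7 what they had reached by day 3. Etv4, an ETS factor downstream of FGF signalling, was 2.51-fold lower at day 7 than at day 0.

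Some targets of LIF and STAT3 were lower in the embryoid bodies, which were grown without LIF. Of 11 detected members, 0 were higher and 4 lower at day 3, beside 7.85% and 8.91% over all genes. At day 7 against day 0, 1 was higher and 5 lower (median -0.93), beside 9.27% and 7.76%. The same 11 genes had 1 higher and 5 lower in the PKM1 knock-in line (median -0.77) and 1 higher and 4 lower in the wild type line (median -0.85). Tgm2, a transglutaminase, differed between the lines in this list, with a log2 difference of -3.06 in PKM2 knock-in cells, 3.54 in PKM1 knock-in cells and 2.37 in wild type cells. Socs3, the feedback inhibitor of the pathway, read 14.22, 12.32 and 12.35 in the PKM2 knock-in line and was 3.66-fold lower at day 7. Junb, an AP-1 subunit, was 8.06-fold lower at day 7 (7.62, 5.69 and 4.61), and Bcl3, an NF-kB cofactor, was 3.87-fold lower (13.10, 12.13 and 11.15). The receptor subunits Lifr (11.86, 12.12 and 11.84) and Il6st (10.37, 10.34 and 10.38) stayed level.

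Many visceral endoderm genes were higher at day 7 than at day 3 in the PKM2 knock-in line. Among its receptors and transcription factors, 19 of 21 listed genes were detected in the line. Day 3 against day 0 had 2 higher and 9 lower with a median of -1.46, or -0.98 with undetected values at their bound, beside 7.85% higher and 8.91% lower over all genes. Day 7 against day 3 had 16 higher and 0 lower with a median of 2.60, or 2.41 at the bound, beside 5.45% higher and 3.4% lower over all genes. Between day 0 and day 7, 9 were higher and 1 lower with a median of 0.98, beside a share of 9.27% higher and 7.76% lower over all genes. The same 19 genes at day 7 against day 0 had 19 higher and 0 lower in the PKM1 knock-in line (median 6.91), and 14 higher and 2 lower in the wild type line (median 2.16).

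Cubn, the endocytic receptor cubilin, was the gene with the largest fold by day 7 among established symbols detected on both arrays. It read 4.51, 5.76 and 10.48 over the 3 days in the PKM2 knock-in line, 5.26, 6.61 and 14.21 in PKM1 knock-in cells and 5.88, 7.05 and 6.66 in the wild type line. Day 7 was 62.8-fold above day 0 in the PKM2 knock-in line, and the wild type array showed no such increase. Lrp2, its partner megalin, was 2.7-fold higher at day 7 than at day 0 (8.75, 10.06 and 10.19), and Dab2, an endocytic adaptor, was 4.16-fold higher (5.32, 5.06 and 7.37). Amn, the subunit that anchors cubilin, dipped at day 3 and then returned (7.60, 4.93 and 8.34), 10.6-fold higher at day 7 than at day 3 but within 2-fold of day 0.

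Several endoderm transcription factors were also higher at day 7 than at day 3. Foxa2, a forkhead factor, read 6.44, 5.63 and 8.40 and was 3.89-fold above day 0 at day 7, against 13.04 at day 7 of the PKM1 knock-in line and 10.33 at day 7 of the wild type line. Hnf4a, a nuclear receptor of visceral endoderm and liver, read 4.50 at day 0, was not well above background at day 3 and read 6.78 at day 7, 4.87-fold above day 0. Sox17 read 5.69, 4.63 and 6.86, Gata4 7.47, 6.08 and 8.29, and Sox7 7.50, 5.70 and 8.30. Of these 3 factor genes, Sox17 passed 2-fold against day 0 (2.26-fold), and Gata4 and Sox7 did so against day 3 alone (4.65-fold and 6.05-fold). Clic6, a chloride channel family gene, read 7.10, 4.78 and 9.29, and Srgn, which encodes the proteoglycan serglycin and is in no list here, read 4.93 at day 0, was not detected at day 3 and read 9.84 at day 7.

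Several secreted carrier genes of visceral endoderm were higher at day 7. Of 26 listed genes, 18 were detected in the PKM2 knock-in line, 14 of them on its day 0 array, 11 on day 3 and 17 on day 7. Alb, Apoa1, Apoa4, Serpina1a, Fabp1 and Slc2a2 were among those not detected. At day 3 against day 0, 1 was higher and 5 lower (median -0.24, or -0.08 at the bound). Over all genes, 7.85% were higher and 8.91% lower in that pair. By day 7 against day 0, 7 were higher and 1 lower (median 0.57), beside 9.27% higher and 7.76% lower over all genes. Day 7 against day 3 had 9 higher and 1 lower with a median of 1.78, or 1.05 at the bound. The shares over all genes there were 5.45% and 3.4%. Members detected at day 7 alone, such as S100g, Ttr and Afp, could count only as higher. With genes detected on all 3 arrays, the day 7 against day 0 median was 0.40. Over the same 18 genes at day 7 against day 0, the PKM1 knock-in line had 16 higher and 1 lower (median 6.37), and the wild type line had 10 higher and 1 lower (median 1.25).

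S100g encodes calbindin-D9k, a calcium-binding protein of absorptive epithelia, and it had the largest difference among the carriers. Its promoter is shown as that of a gene that was silent until day 7, chrX:162964550-162964849 on the minus strand of GRCm38.p6 (RefSeq, 5′ to 3′ along the gene). The capitals mark the single match to the forkhead motif TGTTTAC, which lies here on the opposite strand.
S100g promoter: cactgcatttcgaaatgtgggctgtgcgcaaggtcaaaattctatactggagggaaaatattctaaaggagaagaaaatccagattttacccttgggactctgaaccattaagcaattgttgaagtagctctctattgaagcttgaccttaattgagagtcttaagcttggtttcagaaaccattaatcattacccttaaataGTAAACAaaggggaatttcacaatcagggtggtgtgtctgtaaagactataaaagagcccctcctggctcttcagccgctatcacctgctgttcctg
On either strand, 3.65% of the 32851 promoters hold this motif, and so do 4 of the 23 promoters matched to the carrier list (17.4%), those of Apoa2, Apoe, Rbp4 and S100g. Apoa2, Apoe and Rbp4 stayed within 2-fold of day 0 at day 7, so in most of these genes a match did not go with a change. S100g, the only member that passed 2-fold, was shown because of its difference.

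S100g was not well above background at day 0 or day 3 of the PKM2 knock-in line and read 9.92 at day 7, at least 67.6-fold above day 0. In the PKM1 knock-in line it was likewise undetected at day 0 and day 3 and read 16.76 at day 7. In the wild type line it read 7.91 at day 0, was undetected at day 3 and read 10.01 at day 7. Ttr, the thyroid hormone carrier transthyretin, was undetected before day 7 in all 3 lines and then read 8.71 in the PKM2 knock-in line, 15.15 in PKM1 knock-in cells and 9.47 in the wild type line. Afp, alpha-fetoprotein, followed the same course, with day 7 signals of 6.30 in the PKM2 knock-in line, 17.70 in PKM1 knock-in cells and 9.10 in the wild type line. The increase from day 0 in the PKM2 knock-in line was at least 29.3-fold for Ttr and at least 5.52-fold for Afp. Apob, the structural protein of lipoproteins, read 4.62, 5.32 and 7.50 and was 7.37-fold higher at day 7 than at day 0. Ctsh, a lysosomal protease, dipped and then exceeded its start (8.97, 6.50 and 11.32), and Rbp4, the retinol carrier, dipped and returned (8.04, 6.13 and 8.44). Day 7 Rbp4 was 17.20 in PKM1 knock-in cells and 12.35 in the wild type line.

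**Figure D3:**
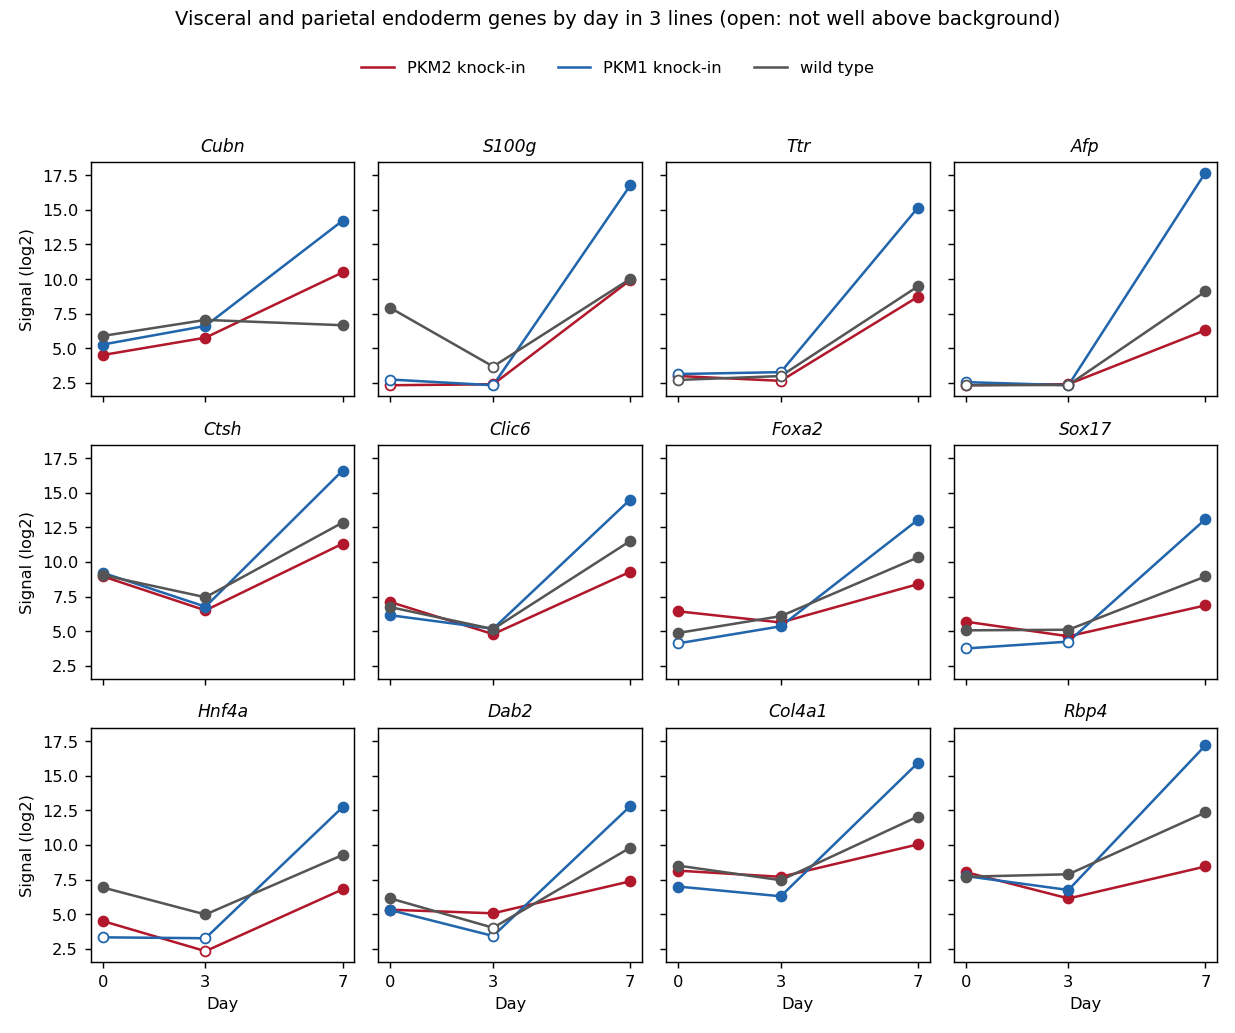
Signal (log2, vertical axis) by day (horizontal axis) of 12 endoderm genes in the PKM2 knock-in (red), PKM1 knock-in (blue) and wild type (grey) lines, 1 array per point; open circles were not well above background. S100g of the PKM2 knock-in line is open at days 0 and 3 and reads 9.92 at day 7, against 16.76 in the PKM1 knock-in line.

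A fixed set of 10 visceral endoderm markers shares its genes with the carrier list and the receptor and factor list above, so it is not a separate readout. It had 7, 6 and 9 members detected in the PKM2 knock-in line on days 0, 3 and 7, with Apoa1 the member missing at day 7. Its summed signal was 9.31, 8.10 and 11.63 (log2). At day 7 it was 18.84 in PKM1 knock-in cells and 13.15 in the wild type line.

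Definitive and parietal endoderm genes were mixed at day 7 against day 0, beside 9.27% higher and 7.76% lower over all genes. Of 17 detected definitive endoderm genes, 3 were higher (Foxa2, Sox17 and Tff3) and 5 lower at day 7 against day 0, with a median of 0.69, compared with 14 higher and 1 lower (median 4.95, or 3.97 at the bound) in PKM1 knock-in cells and 13 higher and 0 lower (median 1.64) in the wild type line. Of the 3 higher members, Foxa2 and Sox17 are also on the visceral endoderm list. Cer1, the Nodal and Wnt antagonist cerberus, read 5.62 at day 0 of the PKM2 knock-in line and was not detected at day 3 or day 7, while its day 7 signal was 7.70 in PKM1 knock-in cells and 10.83 in the wild type line. Gsc, a homeobox factor of the organizer, was likewise lost after day 0 (6.10 at day 0). Of 17 parietal endoderm and basement membrane genes, 5 were higher and 1 lower at day 7 against day 0 (median 0.14). The collagen IV chains Col4a1 (8.14, 7.69 and 10.04) and Col4a2 (7.94, 6.46 and 9.86) were 3.72-fold and 3.78-fold above day 0, and Pth1r, the parathyroid hormone receptor, was 3.82-fold above (6.35, 6.42 and 8.29). The laminin chain Lama1 stayed level in the PKM2 knock-in line (13.01, 12.72 and 13.35), against 17.44 at day 7 of the PKM1 knock-in line and 12.54 at day 7 of the wild type line.

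Of the list of simple epithelial keratins and trophoblast genes, 10 members were lower at day 3 and 8 at day 7 in the PKM2 knock-in line. Of 16 detected members of 19, 0 were higher and 10 lower at day 3 against day 0 (median -1.90, or -1.60 at the bound), and 0 were higher and 8 lower at day 7 against day 0 (median -1.43, or -1.06 at the bound). Over all genes, 7.85% were higher and 8.91% lower in the first pair, and 9.27% and 7.76% in the second. With normexp background correction the day 7 median was -0.65. At day 7 against day 0 the same genes went the other way in the other lines, with 11 higher and 3 lower (median 2.09) in PKM1 knock-in cells and 8 higher and 3 lower (median 1.44, or 0.79 at the bound) in the wild type line. Krt18, the acidic keratin of simple epithelia, read 14.06, 10.44 and 10.99 over the 3 days in the PKM2 knock-in line, 11.51, 10.55 and 16.90 in PKM1 knock-in cells and 12.22, 11.49 and 16.01 in the wild type line. Its partner Krt8 read 11.60, 8.38 and 8.60, then 9.07, 7.87 and 14.26, and then 9.67, 10.14 and 13.23 in the same 3 lines. Day 0 was the highest of the 3 days in the PKM2 knock-in line and day 7 the highest in the other lines. The PKM2 knock-in day 0 signal was also above the day 0 signal of both other lines for both keratins. Trophoblast markers were near background: of Cdx2, Krt7, Elf5 and Tpbpa, 2 were detected at day 0 and 0 at days 3 and 7.

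Muscle actins and other genes that lay far below both other lines in their day 7 difference were likewise lower after day 0. Acta1 encodes skeletal muscle actin, a gene controlled by serum response factor, and its promoter is shown as that of a gene of this group, which was chosen by its values. It is chr8:123894726-123895025 on the minus strand of GRCm38.p6 (RefSeq, 5′ to 3′ along the gene), and the capitals mark its single CArG box, the element that serum response factor binds.
Acta1 promoter: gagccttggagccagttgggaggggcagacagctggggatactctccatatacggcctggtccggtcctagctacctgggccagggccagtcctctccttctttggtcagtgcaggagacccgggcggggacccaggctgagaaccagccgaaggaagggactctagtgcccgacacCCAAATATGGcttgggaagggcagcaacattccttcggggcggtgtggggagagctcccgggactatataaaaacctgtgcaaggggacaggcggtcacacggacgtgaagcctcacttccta
On either strand, 1.63% of the 32851 promoters hold a CArG box. Of the 10 genes whose course in the PKM2 knock-in line lay furthest below both other lines, 8 had a promoter in the table and 2 of these, Acta1 and Fhl2, hold one.

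Acta1 read 7.57 at day 0 of the PKM2 knock-in line and was not well above background at day 3 or day 7, while day 7 read 9.73 in PKM1 knock-in cells and 9.91 in the wild type line. Acta2, smooth muscle actin, read 9.38 at day 0 and 4.41 at day 3 of the PKM2 knock-in line and was not well above background at day 7. It read 7.06, 4.64 and 13.59 over the same days in PKM1 knock-in cells and 7.08, 4.33 and 13.46 in the wild type line. All 3 lines thus dropped at day 3, and at day 7 the PKM2 knock-in array was the one not well above background. Tagln, the smooth muscle protein SM22, read 11.83, 9.32 and 9.16 in the PKM2 knock-in line, against 14.47 at day 7 in both other lines. Anxa1, a calcium-dependent phospholipid-binding protein, read 10.63, 7.60 and 6.2, against 13.61 at day 7 of the PKM1 knock-in line and 14.29 at day 7 of the wild type line. Fhl2, a LIM-domain cofactor, read 9.02, 6.14 and 6.09, against 12.83 at day 7 of the PKM1 knock-in line and 11.45 at day 7 of the wild type line.

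**Figure D4:**
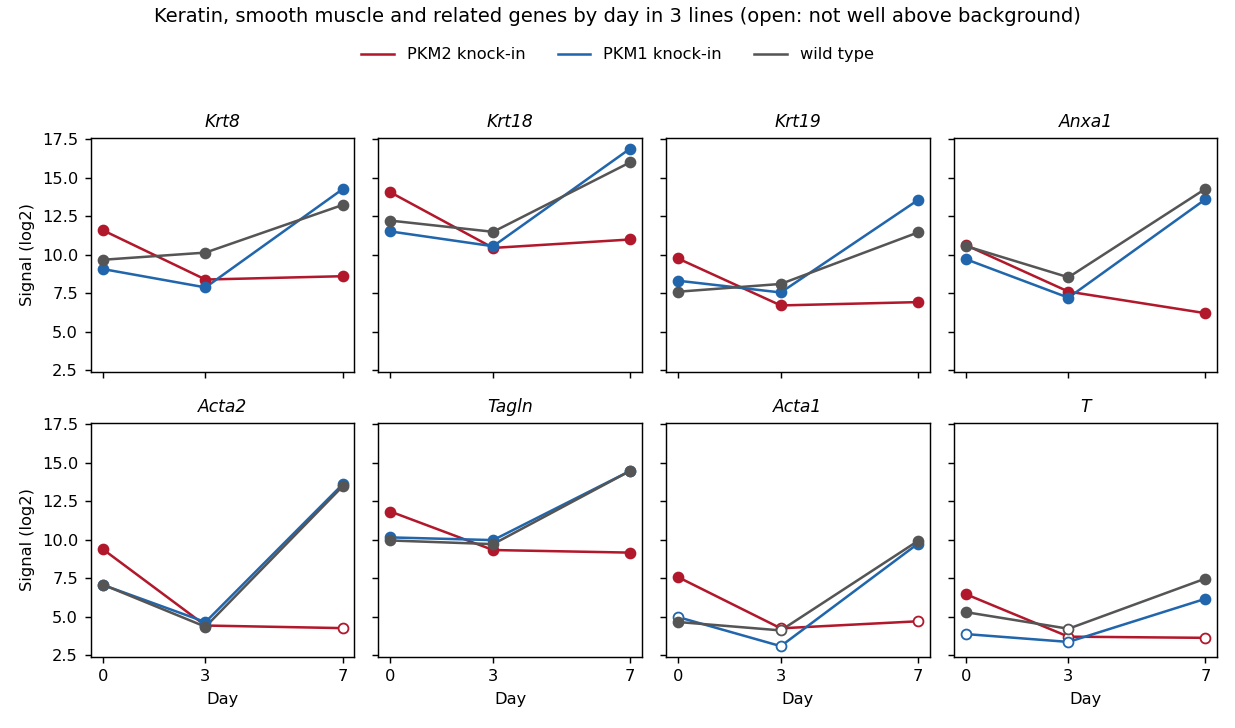
Signal (log2, vertical axis) by day (horizontal axis) of keratin, actin and related genes in the PKM2 knock-in (red), PKM1 knock-in (blue) and wild type (grey) lines, 1 array per point; open circles were not well above background. Krt18 of the PKM2 knock-in line reads 14.06 at day 0 and 10.99 at day 7, whereas its day 7 signal is 16.90 in PKM1 knock-in cells and 16.01 in the wild type line.

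Markers of primitive streak and mesoderm were not gained in the PKM2 knock-in line. Of 20 detected genes of 26, 1 was higher and 6 lower at day 7 against day 0 (median -0.80, or -0.63 at the bound). Shares over all genes of the line were 9.27% higher and 7.76% lower. The PKM1 knock-in line had 11 higher and 4 lower (median 1.42), and the wild type line 8 higher and 5 lower (median 0.08). T, the brachyury factor of the streak, read 6.46 at day 0 and was undetected at days 3 and 7, while day 7 read 6.15 in PKM1 knock-in cells and 7.47 in the wild type line. Cdx1, a caudal homeobox factor, was 11.3-fold lower at day 7 than at day 0 (11.99, 8.62 and 8.49). The member that was higher was Pdgfra, a growth factor receptor shared with primitive endoderm, which read 5.36 at day 0, was undetected at day 3 and read 6.80 at day 7. Lhx1, a LIM homeobox factor, peaked at day 3 (5.72, 8.0 and 5.83).

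Later derivatives were mixed, beside 9.27% higher and 7.76% lower over all genes at day 7 against day 0. Of 18 detected cardiac genes, 3 were higher and 2 lower at day 7 against day 0 (median 0.52), led by Myl2, the ventricular myosin light chain, at 5.36, 5.20 and 7.56. Actc1, the cardiac actin, was not detected in the line and Tnnt2, cardiac troponin T, was detected at day 0 alone. Of 19 blood and endothelial genes, 4 were higher and 4 lower (median -0.16). Among 17 detected Hox genes, 0 were higher and 9 lower at day 3, beside 7.85% and 8.91% over all genes. At day 7 against day 0, 1 was higher and 4 lower (median -0.85). Day 7 against day 3 had 5 higher and 0 lower (median 0.74), beside 5.45% and 3.4% over all genes. Hoxb9, for example, read 7.40 at day 0, was undetected at day 3 and read 6.96 at day 7. In genes of the epithelial to mesenchymal transition, 0 of 18 were higher and 7 lower at day 7 (median -0.68). The PKM1 knock-in line had 11 higher and 1 lower (median 1.69), and the wild type line 8 higher and 0 lower (median 0.47). This list holds epithelial genes such as Cldn6 and Cldn7, both among the lower, beside mesenchymal ones. Its counts therefore give no direction along the transition. Vim, the intermediate filament vimentin, read 13.03, 12.25 and 11.52 in the PKM2 knock-in line, and Cdh1, E-cadherin, read 12.62, 12.54 and 11.77.

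Neural ectoderm genes gave no common direction, with 4 of 23 higher and 7 lower at day 7 against day 0 (median -0.09). The shares over all genes were 9.27% higher and 7.76% lower. Among the 4 higher members, Sox1, Rax and Tubb3 were higher on each successive day, although more members of the list were lower. Sox1, the earliest definitive neural plate factor, read 7.78, 8.75 and 9.71 in the PKM2 knock-in line, against 7.72 at day 7 of the PKM1 knock-in line and 8.18 at day 7 of the wild type line. Rax, a homeobox factor of the eye field, read 4.66, 6.16 and 7.34, and Tubb3, neuronal beta-tubulin, read 11.31, 12.09 and 12.84. Day 7 was 3.79-fold above day 0 for Sox1, 6.41-fold for Rax and 2.88-fold for Tubb3. Nes, the progenitor filament nestin, went down (9.15, 8.0 and 7.02), as did Sox3 after day 3 (9.76, 10.59 and 8.52). A fixed neural marker set had a median signal of 8.47, 8.38 and 8.36 over the 3 days. At day 7 its median was 8.87 in PKM1 knock-in cells and 9.55 in wild type cells. Its summed signal, to which Tubb3 contributes most, was 11.74, 12.31 and 13.03. Of 13 neural crest genes, 0 were higher and 1 lower at day 7.

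Many fibroblast and feeder-cell genes, immediate early genes and inflammatory genes were lower after day 0. Of 21 detected fibroblast and feeder genes of 25, 0 were higher and 14 lower at day 3, and 0 were higher and 15 lower at day 7 against day 0 (median -2.51, or -1.88 at the bound). With normexp background correction this median was -1.18. Beside these counts, 7.85% of all genes were higher and 8.91% lower at day 3, and 9.27% and 7.76% at day 7. By day 7 against day 0 the PKM1 knock-in line had 6 higher and 6 lower (median 0.21), and the wild type line 6 higher and 7 lower (median 0.10). Col1a2, a collagen I chain, read 10.25, 6.26 and 7.01 in the PKM2 knock-in line, and Mgp, matrix Gla protein, read 9.83 and 6.23 at days 0 and 3 and was undetected at day 7. A fixed set of 10 fibroblast markers had 9, 6 and 6 members detected in the PKM2 knock-in line on days 0, 3 and 7 and a summed signal of 12.17, 9.51 and 9.14. It summed to 14.20, 10.07 and 12.54 in PKM1 knock-in cells and to 14.21, 10.77 and 12.05 in the wild type line, so each day 0 array held this signal. In the PKM2 knock-in line this sum was lower at days 3 and 7 than at day 0, as were several keratin, actin, mesoderm and Hox genes above. The median Hox signal was 5.80, 4.10 and 4.91, and its day 3 value lies below the lowest detected signal of that array, 4.38. The part of the fibroblast signal in the lower values of those keratin, actin, mesoderm and Hox genes was not tested.

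Fos, an immediate early AP-1 gene, read 11.44, 6.32 and 5.96 in the PKM2 knock-in line, 14.18, 6.2 and 8.38 in PKM1 knock-in cells and 14.94, 5.78 and 8.08 in the wild type line. It was 44.6-fold lower at day 7 than at day 0 in the PKM2 knock-in line and lower in all 3 lines. Of 16 immediate early genes, 0 were higher and 10 lower at day 7 against day 0 (median -1.69), and of 15 inflammatory mediators, 0 were higher and 12 lower (median -2.0). Ccl2, a monocyte chemokine, read 11.15, 7.17 and 7.33. Interferon and MHC class I genes had 0 of 18 higher and 4 lower (median -0.60). The shares over all genes at day 7 against day 0 were 9.27% higher and 7.76% lower.

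Y-linked genes also differed between the arrays of the PKM2 knock-in line. Eif2s3y, a Y-linked translation factor gene, read 11.75 at day 0 and 7.67 at day 3 and was not well above background at day 7, at least 160-fold below day 0. Its signal was 8.13, 8.33 and 9.13 over the same days in PKM1 knock-in cells and 6.36, 5.76 and 4.36 in the wild type line. Ddx3y read 9.80 and 4.75 and was undetected at day 7. Uty read 5.38 and 6.84 and was undetected at day 7, but its probes disagreed in direction between day 3 and day 0. Xist, the RNA that silences an X chromosome, was not detected on any array of the line. Whether the makeup of the cultures differed between days was not tested.

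For genes of the metabolic setting in which Pkm acts, the shares past 2-fold at day 7 against day 0 were near or below those over all genes, which were 9.27% higher and 7.76% lower. Of 25 glycolysis and sugar transport genes, 1 was higher and 2 lower at day 7 against day 0 (median -0.23), compared with 6 higher and 0 lower in the PKM1 knock-in line (median 0.27) and 7 higher and 0 lower in the wild type line (median 0.60). Ldhb, the heart-type lactate dehydrogenase subunit, was 2.5-fold higher at day 7 (14.41, 14.54 and 15.73), while Hk1, a hexokinase, was 2.28-fold lower (11.92, 10.78 and 10.73) and Pfkfb3, an activator of phosphofructokinase, was 2.06-fold lower (9.74, 9.37 and 8.70). Ldha, the muscle-type subunit, read 16.57, 17.27 and 16.09. Of 23 genes of pyruvate entry and the TCA cycle, 0 passed 2-fold in either direction at day 7 against day 0 (median 0.10). None of the 9 regulators of Pkm splicing passed 2-fold in any pair. Ptbp1, a repressor of the PKM1 exon, read 13.83, 14.16 and 13.69, and Hnrnpa1, another such repressor, read 13.63, 13.73 and 13.68.

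Hypoxia-inducible genes did not go up in the PKM2 knock-in line, with 0 of 16 higher and 3 lower at day 7 against day 0. Their median was -0.51, and over all genes of the line 9.27% were higher and 7.76% lower. The PKM1 knock-in line had 10 higher and 1 lower (median 1.36), and the wild type line 4 higher and 0 lower (median 0.39). Bnip3, a mitophagy receptor, read 13.01, 13.26 and 12.14 in the PKM2 knock-in line, 10.83, 13.38 and 14.51 in PKM1 knock-in cells and 9.96, 13.16 and 12.40 in the wild type line. Its day 0 signal was thus highest in the PKM2 knock-in line and its day 7 signal lowest there.

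Cholesterol synthesis genes peaked at day 3. Of 24 genes, 14 were higher and 0 lower at day 3 against day 0 with a median of 1.01, and 4 were higher and 0 lower at day 7 against day 0 with a median of 0.48. Dhcr7, an enzyme of the last steps, read 7.74, 9.75 and 9.10, and Idi1, the isopentenyl diphosphate isomerase, read 11.47, 12.94 and 11.92. Hmgcs1, an early enzyme of the pathway, read 13.13, 14.18 and 13.50 and was 2.08-fold above day 0 at day 3. Genes of ribosome biogenesis and Myc had a small shift of the same shape, with 1 of 24 higher at day 3 (median 0.44) and 0 past 2-fold at day 7 (median 0.06). The median signal of this list was likewise highest at day 3 in each line.

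Most proliferation genes were within 2-fold of day 0 at day 7, beside 9.27% higher and 7.76% lower over all genes in that pair. Of 32 cell cycle and replication genes, 0 were higher and 4 lower at day 7 against day 0 (median -0.06), and the 4 were Ccnd1, Ccnd2, Cdkn1a and Cdkn1c. Ccnd2, cyclin D2, read 9.41, 7.89 and 6.67 in the PKM2 knock-in line, 8.97, 8.54 and 12.21 in PKM1 knock-in cells and 9.60, 10.02 and 11.15 in the wild type line. Cdkn1a, the cell cycle inhibitor p21, read 11.40, 10.17 and 9.39 in the PKM2 knock-in line, against 12.12 at day 7 of the PKM1 knock-in line and 12.09 at day 7 of the wild type line. Mki67, the proliferation antigen Ki-67, read 13.93, 13.58 and 13.58. Of 14 targets of p53, 0 were higher and 6 lower at day 7 against day 0 (median -0.77), compared with 1 higher and 0 lower in the PKM1 knock-in line (median 0.12) and 0 and 0 in the wild type line (median -0.14). Between day 7 and day 3 of the PKM2 knock-in line the 14 p53 targets had negative differences, from -0.04 for Bax to -1.61 for Perp. The median over all genes was -0.03 in this pair, and Bax and Sesn1 (-0.06) differed by less than the median spot SD of 0.07. Perp, a cell adhesion and death gene, read 13.05, 12.83 and 11.21.

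In several further lists more members were lower than higher at day 7 against day 0, beside 9.27% higher and 7.76% lower over all genes. Of 21 genes of the integrated stress response, 1 was higher and 9 lower at day 3 (7.85% and 8.91% over all genes), and 1 was higher and 4 lower at day 7 against day 0 (median -0.28). The higher gene was Chac1, a glutathione-degrading enzyme, at 11.16, 12.72 and 13.68 in the PKM2 knock-in line, 14.62, 11.17 and 13.59 in PKM1 knock-in cells and 14.23, 10.86 and 13.20 in the wild type line. Of 18 Nodal and BMP genes, 1 was higher and 3 lower at day 7 against day 0 (median -0.11). Of 16 imprinted genes, 1 was higher and 4 lower (median -0.27), and Meg3, a maternally expressed non-coding RNA, read 12.30, 9.51 and 8.37 in the PKM2 knock-in line, against 13.71 at day 7 of the PKM1 knock-in line and 13.24 at day 7 of the wild type line. Dlk1, the paternally expressed gene of the same cluster, read 9.57, 7.30 and 6.74. Of 15 germline genes, 0 were higher and 6 lower (median -0.90). Of 9 DNA methyltransferase and TET genes, 0 were higher and 1, Dnmt3a, was lower.

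The largest differences over all genes mixed such markers with genes seen on few arrays. By day 7 against day 0 the 10 largest increases were S100g, Cubn, Olfr710, Fam24a, Bcl11a, Srgn, Itgb2, Krtap12-1, Ttr and Olfr1467, with folds of at least 27 for Olfr1467 to at least 67.6 for S100g. Bcl11a, a zinc finger repressor, was undetected at day 0 and read 9.71 at day 3 and 8.98 at day 7. Itgb2, the leukocyte integrin beta-2 subunit, read 5.17, 5.08 and 10.07. Fam24a and Olfr1467 were detected on 1 of the 9 arrays. The 10 largest decreases were Eif2s3y, Fos, Mgp, Ddx3y, Acta2, Fosl2, Cd109, Tmem176b, Ccl7 and Tlr12, with folds of at least 26.1 for Tlr12 to at least 160 for Eif2s3y. At day 3 against day 0 the increases were a (nonagouti), Bcl11a, Klhl30, Olfr731, Dbpht2, Lef1, Ccdc60, Spint5, Clec4f and Scarf1, of which Olfr731, Dbpht2 and Ccdc60 were detected on 1 array. The decreases were B4galnt2, Fos, Ddx3y, Acta2, Ifi27, Fosl2, Tlr12, Cerkl, Ccl7 and Zdhhc14, of which Tlr12 and Cerkl were detected on 1 array. At day 7 against day 3 the increases were S100g, Srgn, Itgb2, Olfr1467, Ctsh, Cubn, Olfr710, Gsx2, Pgk2 and Clic6. The decreases were a, Klhl30, Olfr731, Dbpht2, Ccdc60, Spint5, Clec4f, Scarf1, Vmn2r77 and Tcaf3, of which Olfr731, Dbpht2, Ccdc60 and Tcaf3 were detected on 1 array. Each increase in these lists rests on 1 spot per array. So do 8 of the 10 decreases at day 3 against day 0, 8 of 10 at day 7 against day 0 and 10 of 10 at day 7 against day 3.

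The difference between day 7 and day 0 was then set beside that of both other lines, each with its own day 0 array. A line-by-day difference leaves no residual degrees of freedom and was not tested. The genes furthest below both lines were Acta2, Anxa1, Acta1, Cyp26a1, Tagln, Krt18, Fhl2, Krt19, Krt8 and Fosl2. The gap to the nearer line, with undetected values at their bound, was -11.33 log2 units for Acta2 and -6.46 for Fosl2. Cyp26a1, the retinoic acid hydroxylase, read 7.78 at day 0 of the PKM2 knock-in line, was undetected at day 3 and read 6.54 at day 7, against 13.18 at day 7 of the PKM1 knock-in line and 10.90 at day 7 of the wild type line. The genes furthest above both lines were Krtap12-1, Itgb2, Olfr710, Fam24a, Lcn2, Cxcl5, Olfr1467, Il2rb, Dmbx1 and Gnb3, with gaps of 5.75 for Krtap12-1 to 4.43 for Gnb3. Fam24a, Olfr1467, Il2rb and Gnb3 were each detected on 1 of the 9 arrays, day 7 of the PKM2 knock-in line, and Cxcl5 was not detected at day 0 or day 7 of that line. Lcn2, the iron-binding lipocalin-2, was in this group although it was 4-fold lower at day 7: it read 7.95 at day 0 and 5.95 at day 7 in the PKM2 knock-in line, and its day 0 signal was 13.00 in PKM1 knock-in cells and 12.65 in the wild type line. Dmbx1, a brain homeobox factor, read 7.39, 8.79 and 11.23 in the PKM2 knock-in line, against 4.54 at day 7 of the PKM1 knock-in line and 7.91 at day 7 of the wild type line.

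**Figure D5:**
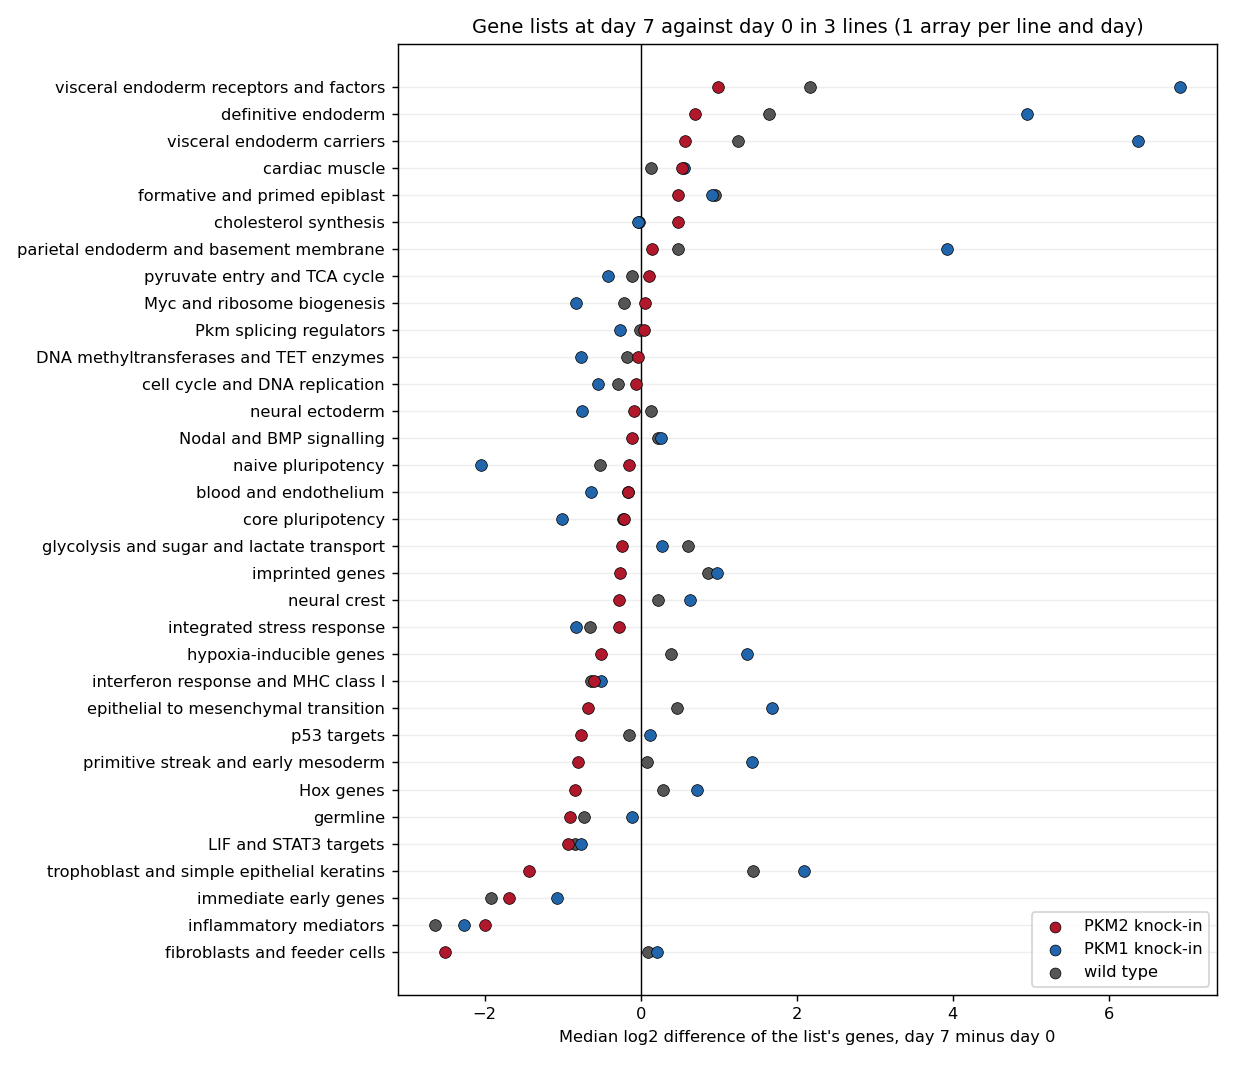
Median log2 difference, day 7 minus day 0 (horizontal axis), of each gene list with at least 5 genes detected in the PKM2 knock-in line, in the PKM2 knock-in (red), PKM1 knock-in (blue) and wild type (grey) lines. The red point lies at -1.43 for trophoblast and simple epithelial keratins, where the other lines lie at 2.09 and 1.44, and at -0.15 for naive pluripotency, where the PKM1 knock-in line lies at -2.04.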

How the data were processed

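RNA of 9 samples, 1 for each of 3 ES lines at days 0, 3 and 7, was labelled with Cy3 and read on 1-colour Agilent arrays, and spots were quantified in Feature Extraction 10.10 from Agilent, as the file headers record. The deposited intensity values used are the processed signals, which the authors' scanner software had background-corrected, per the file headers. The authors' deposited value table holds the same values rounded and was not used further. Depth does not apply to arrays, and their number, 1 per line and day, limits the precision.

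Outlier-flagged spots and control spots were dropped, each array was scaled to a common 75th percentile, values were floored at 5, and log2 was taken of these deposited intensities. Spots of a probe were averaged. Probes were named through their accession with the RefSeq table of GRCm38.p6: 27229 of 55681 probes matched. A gene was its brightest probe among those well above background on at least 1 of the 9 arrays. Counts use 2-fold differences and no test.

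Members and gene lists were chosen with earlier results of these data known. Genes named were list members, the 10 largest differences in each direction per pair of days among established symbols, the 10 genes in each direction whose day 7 difference lay farthest beyond both other lines, the 10 brightest kept pluripotency genes and every Pkm probe. Alternatives were other background correction, normalization, floor, probe, filter and fold settings. Calculations used Python 3.11.15, numpy 2.4.6, pandas 2.3.3 and scipy 1.17.1, and figures matplotlib 3.10.9.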

Additional observations from a re-analysis of the deposited data

Results flagged for a closer look

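The PKM2 knock-in line had 15306 genes detected on at least 1 of its arrays. Of these, 144 were at least 2-fold lower at day 7 than at day 0 here but at least 2-fold higher in both other lines. Another 17 went the opposite way. With 1 array per line and day, the difference between the lines was not tested, and the day 7 array of the PKM2 knock-in line was alone on its slide. Of the 550 list genes detected in the line, 26 and 2 were in these groups, and the lists were chosen with earlier results of these data known. Their log2 differences, day 7 minus day 0, in the PKM2 knock-in line follow. Where the dimmer array was not well above background, the value is counted from the bound defined above. Such a value stands for at least that difference.

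Genes of actin, intermediate filaments and cell contacts were lower, with -4.95 for Acta2, -3.07 for Krt18, -3.06 for Tgm2, -2.99 for Krt8, -2.84 for Krt19, -2.67 for Tagln, -2.13 for Nes, -1.63 for Krt7 and -1.51 for Vim. Krt18 was 5.39 higher in the PKM1 knock-in line and 3.79 higher in the wild type line. Transcription factors, signals and junction genes of streak, endoderm, trophoblast and mesenchyme were lower as well, with -2.03 for T, -2.0 for Hoxc6, -1.82 for Foxa1, -1.75 for Postn, -1.64 for Gsc, -1.47 for Cdx2, -1.43 for Bmp2, -1.33 for Snai2, -1.31 for Cldn6, -1.27 for Gata3 and -1.19 for Cer1. Cer1 was at least 3.12 higher in the PKM1 knock-in line and at least 6.77 higher in the wild type line. Its day 0 level was not well above background in those lines. The remaining members read -2.74 for Ccnd2, -1.42 for Cxcl10, -1.24 for Dnmt3a, -1.14 for Cdkn1c, -1.04 for Pfkfb3 and -1.04 for Egln3. The opposite direction was seen for Cd34, a surface glycoprotein of blood progenitors and endothelium, at 1.09, and Chac1, at 2.52. In the PKM1 knock-in line these read -1.74 for Cd34 and -1.04 for Chac1, and in the wild type line -1.62 and -1.04.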

How the results depend on the processing

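No paired analysis was possible because each line and day has 1 array, and for the same reason no replicate could be left out. Of 99 list medians of the PKM2 knock-in line, the 14 beyond 1 log2 unit kept their sign under each of the 10 settings tried for them. With normexp background correction the counts of genes higher and lower were 642 and 866 at day 3 against day 0, 645 and 708 at day 7 against day 0, and 461 and 255 at day 7 against day 3, and the medians at day 7 against day 0 were 0.42 for visceral endoderm carriers, 0.81 for its receptors and factors, -0.65 for trophoblast and keratins and -1.18 for fibroblasts. With a 4-fold threshold the counts in the 3 pairs were 249 and 375, 302 and 313, and 233 and 96. With genes detected on all 3 arrays of the line, day 7 against day 0 had 860 higher, day 7 against day 3 had 523 higher and 343 lower, and the medians were 0.40 for carriers and -1.03 for trophoblast and keratins. With no filter these medians were 0.40 and -1.03, and that of fibroblasts was -2.32. With quantile normalization, or with detection on at least 3 of the 9 arrays, the trophoblast and keratin median was -1.58. A floor of 20 gave 0.84 for receptors and factors, -1.11 for trophoblast and keratins and -1.98 for fibroblasts, and the mean over probes gave 0.77 for carriers. The cause of these shifts was not tested. Signals near background limit the folds of genes that were silent on an array, which are lower bounds.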

Other observations

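Mest, an imprinted gene, read 11.45, 12.25 and 12.29 in the PKM2 knock-in line on days 0, 3 and 7 and 11.18, 12.06 and 12.16 in PKM1 knock-in cells, against 4.42, 4.76 and 6.26 in the wild type line. Gc, which encodes the vitamin D-binding protein, read 9.01, 10.59 and 9.37 in PKM2 knock-in cells and 6.22, 10.04 and 9.60 in PKM1 knock-in cells, and it was not well above background on any wild type array. For both genes the knock-in lines lay above the wild type line on every day. With 1 line per genotype, line and genotype cannot be told apart.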
